A study of Mus musculus with 12 samples.

Results

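The 8 genes described here encode the subunits of GATOR1 and GATOR2, the protein complexes through which Sestrins act on mTORC1. They were picked out by symbol, as the subunits of the 2 complexes, with earlier results of these data known, and were found as 8 of the 30154 genes in the deposited tables. Depdc5, Nprl2 and Nprl3 encode the 3 subunits of GATOR1. Mios, Wdr24, Wdr59, Seh1l and Sec13 encode the 5 subunits of GATOR2. All 8 had enough counts to be among the 15890 genes tested.

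mTORC1 is the kinase complex that couples cell growth to nutrients, and amino acids bring it to the lysosome through the Rag GTPases. GATOR1 is the GTPase-activating complex that switches the Rags off, while GATOR2 acts upstream to oppose GATOR1. Sestrins, which are leucine-sensitive and stress-induced proteins, bind GATOR2 when leucine is scarce and so keep mTORC1 low. In muscle stem cells mTORC1 is known for its part in the exit from quiescence after injury.

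RNA was sequenced in bulk from muscle stem cells that had been sorted by flow cytometry out of 3 hind limb muscles, the tibialis anterior, the gastrocnemius and the quadriceps, of C57BL/6J mice aged 2 to 3 months. The mice were wild type (WT) or carried a Sestrin1,2 knockout (KO), and cells were taken before injury, called day 0, and 7 and 21 days after it. Each of the 6 groups, WT and KO on days 0, 7 and 21, had 2 libraries, so that n = 2 for every group below. All cells went through the same SMART-Seq v4 cDNA and Nextera XT protocol with single-end reads of 76 bases, which does not mark the strand of the transcript. The labels name neither the kind of injury, nor how the genes were knocked out, nor sex, nor whether the 2 libraries of a group came from separate animals.

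The libraries held between 28396862 and 38950614 estimated counts. Sesn2, a targeted gene, lay at 75.1 and 84.3 CPM, the count relative to library size, in WT and at 5.47 and 7.03 CPM in KO at day 0, and at 44.9 and 47.4 CPM against 2.36 and 1.92 CPM at day 7. At day 21 it went against 2 labels: among the libraries labelled WT replicate 1 had 8.92 CPM and replicate 2 had 82.1 CPM, and among those labelled KO replicate 1 had 9.86 CPM and replicate 2 had 108 CPM. Genotype values of day 21 are therefore given for libraries labelled WT or KO, and comparisons of days use the average over both labels. Sesn1, the other targeted gene, was at 70.3 and 68.6 CPM in WT and 46.0 and 45.8 CPM in KO at day 0, so transcript remained from it. The edgeR tests used below take their spread from all 6 groups, day 21 included. Between genotypes at day 0 they called none of the 3 Sestrins, with a log2 fold change of -3.68 for Sesn2 and a lowest edgeR adjusted p of 0.0580. At day 7 they called 1 of the 3, Sesn1, and not Sesn2 at -4.42. A missing call is therefore no sign that levels were equal. The summed level of 8 muscle stem cell markers was 1373 to 1380 CPM in WT and 894 to 933 CPM in KO at day 0, with none of the 8 at 0, while 5 fibro-adipogenic markers summed to 7967 CPM or more in every group.

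The genes lie on different chromosomes except for a pair. In GRCm38 the GATOR1 genes are Depdc5 (ENSMUSG00000037426) on chromosome 5 from 32863701 to 32994236, plus strand, Nprl2 (ENSMUSG00000010057) on chromosome 9 from 107542226 to 107545706, plus strand, and Nprl3 (ENSMUSG00000020289) on chromosome 11 from 32225628 to 32267707, minus strand. Of the GATOR2 genes, Mios (ENSMUSG00000042447) lies on chromosome 6 from 8209222 to 8236274, plus strand, and Sec13 (ENSMUSG00000030298) on the same chromosome from 113728062 to 113740743, minus strand. Wdr24 (ENSMUSG00000025737) lies on chromosome 17 from 25823627 to 25828730, plus strand, Wdr59 (ENSMUSG00000031959) on chromosome 8 from 111448797 to 111522092, minus strand, and Seh1l (ENSMUSG00000079614) on chromosome 18 from 67774876 to 67795487, plus strand. All 8 are annotated as protein coding. Every count of Mios and Wdr24 was whole in 12 of 12 libraries within 1e-06, as were 7 of 12 for Nprl2 and none for the other 5 genes. Stretches of 76 bases or more at 90% identity or more link transcripts of Depdc5 to 106 other genes, of Nprl3 to 144, of Wdr59 to 296, and of Seh1l and Sec13 to 1 each, so their counts may in part be split between genes; none was found for Mios, Wdr24 and Nprl2.

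Per length, in the deposited TPM, Sec13 was the highest and Wdr59 the lowest of the GATOR transcripts in all 12 libraries. Sec13, which besides its place in GATOR2 belongs to the COPII coat and the nuclear pore, ranged from 143 to 255 TPM over the 12 libraries. Seh1l, also a nuclear pore subunit, ranged from 33.7 to 48.8 TPM. The 3 subunits that have no other complex were lower: Mios ranged from 7.76 to 16.3 TPM, Wdr24 from 4.96 to 11.1 TPM and Wdr59 from 0.510 to 2.06 TPM. In GATOR1, Nprl3 ranged from 12.6 to 27.1 TPM and Nprl2 from 15.8 to 19.5 TPM. Depdc5, a subunit that contacts the Rag GTPases, ranged from 2.70 to 5.69 TPM. The order Sec13, Seh1l, Nprl3, Nprl2, Mios, Wdr24, Depdc5, Wdr59 held in 9 of the 12 libraries. Wdr24 stood above Mios in both KO libraries of day 0, and Nprl2 above Nprl3 in replicate 1 labelled WT at day 21. Neighbours in the order overlapped in level between libraries of a group only at day 21 in those labelled WT, where Nprl2 overlapped with Nprl3 and Nprl3 with Mios.

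**Figure D1:**
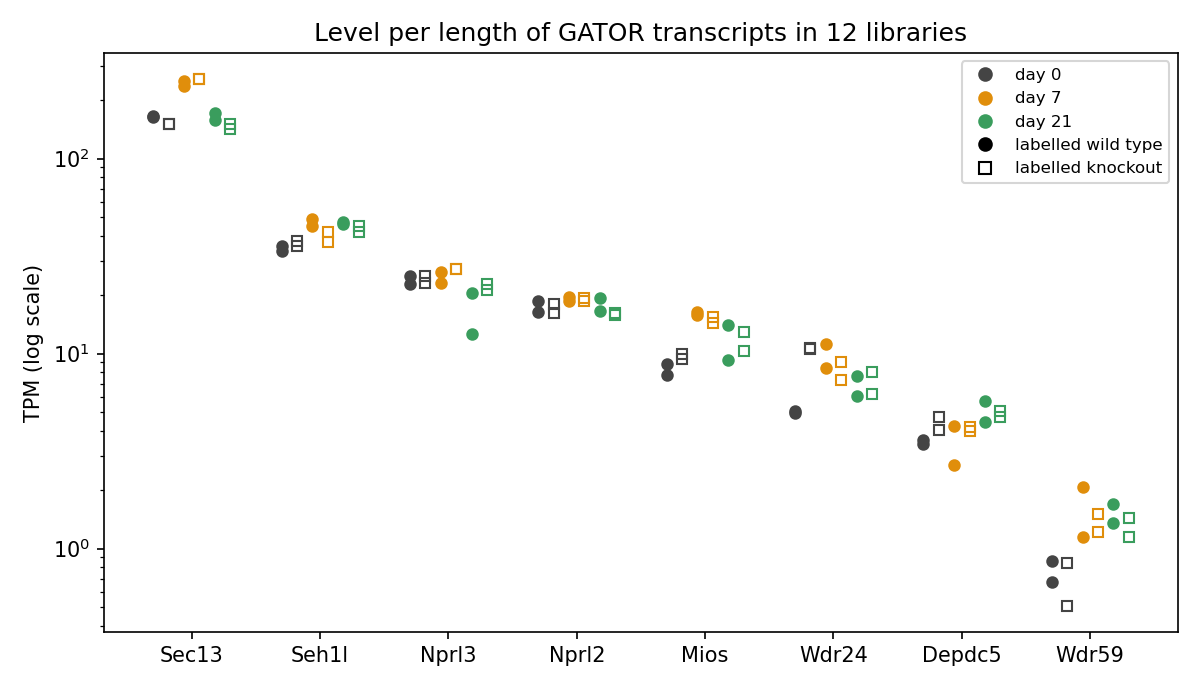
Level per length of the 8 GATOR transcripts, in TPM on a log axis, 1 point per library, with circles for libraries labelled wild type and squares for those labelled knockout, coloured by day. Sec13 lies between 143 and 255 TPM and Wdr59 between 0.510 and 2.06 TPM.

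Summed over its subunits, GATOR2 transcript was at 207 to 213 TPM at day 0, 308 to 329 TPM at day 7 and 202 to 241 TPM at day 21, and the day 7 libraries did not overlap with the others. Sec13 alone made up 69.1% to 80.2% of that sum in a library. Mios, Wdr24 and Wdr59 together came to 13.5 to 21.1 TPM at day 0, 23.1 to 29.0 TPM at day 7 and 16.7 to 23.5 TPM at day 21. GATOR1 transcript stayed in a narrower band, at 42.7 to 47.2 TPM at day 0, 45.8 to 50.4 TPM at day 7 and 36.4 to 43.6 TPM at day 21. The day 0 range overlapped with both others, while those of day 7 and day 21 did not overlap. These sums hold for TPM, and members changed differently in CPM. From day 0 to day 7 in WT, the mean of Sec13 went from 164 to 244 TPM but from 147 to 183 CPM. That of Nprl3 went from 24.0 to 24.7 TPM but from 30.0 to 25.8 CPM.

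Tests used edgeR on the estimated counts, with a call at an adjusted p-value under 0.05 over all genes tested. Between genotypes, 1 of the 8 members was called at day 0, where 27.4% of all genes were, 0 of 8 at day 7, where 1.76% were, and 0 of 8 at day 21 by label, where 0.0126% were. Without adjustment 0 of the 8 had an edgeR p under 0.05 at day 7 and 1 of the 8, Sec13, at day 21, and DESeq2 and limma also called 0 on both days. From day 0 to day 7, 3 of the 8 were called in WT and 2 of the 8 in KO, where 47.0% and 46.9% of all genes were. The change from day 0 to day 7 differed between genotypes, by the interaction test, for 1 of the 8 and for 13.5% of all genes. With both labels averaged, 4 of the 8 were called between day 21 and day 0 and 4 of the 8 between day 21 and day 7, where 45.9% and 56.8% of all genes were. The share of members called lay below that of all genes in every comparison except day 21 against day 0, where it was slightly above.

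**Figure D2:**
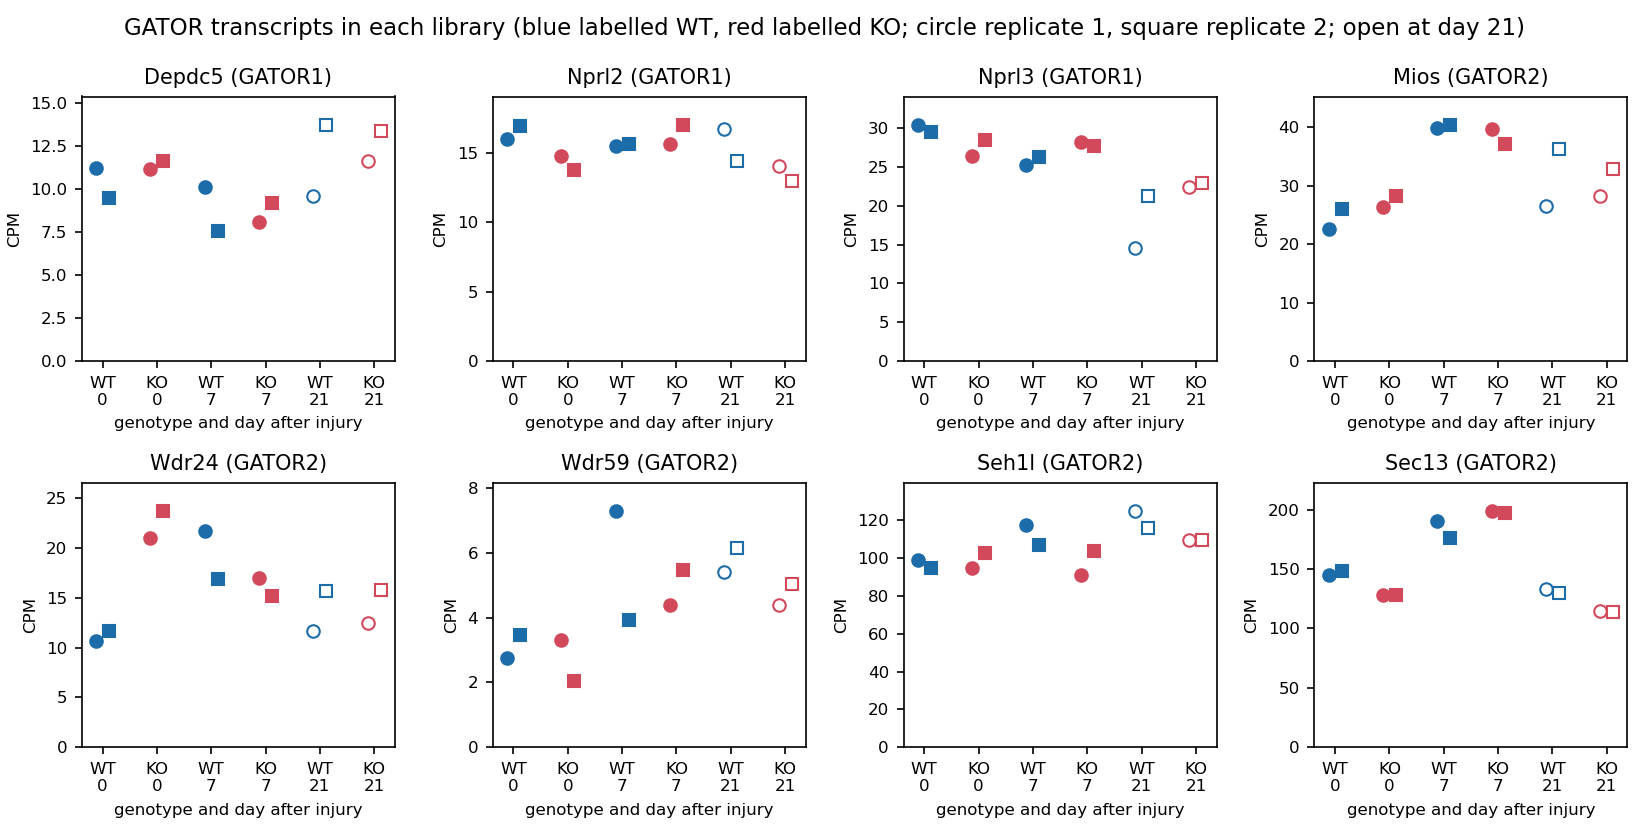
CPM of each GATOR transcript in each of the 12 libraries by label and day, on linear axes from 0, with circles for replicate 1, squares for replicate 2 and open symbols at day 21. Wdr24 is higher in both knockout than in both wild-type libraries at day 0, and Sec13 and Mios are higher at day 7 than at day 0 in both genotypes.

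At day 0 the KO libraries had a higher level of 1 GATOR transcript, Wdr24, and none of the other 7 was called. Wdr24 is a WD40 subunit of GATOR2 that the complex needs to sustain mTORC1 activity. Its level at day 0 was 10.6 and 11.7 CPM in WT and 21.0 and 23.7 CPM in KO, or 5.08 and 4.96 TPM against 10.5 and 10.7 TPM, from 340 to 690 counts a library. Both KO libraries lay above both WT libraries on either scale, as 75.1% of all genes did not overlap between these groups in CPM, in 1 direction or the other. The log2 fold change was 1.00 (SE 0.196, 95% confidence interval 0.57 to 1.44, edgeR adjusted p = 0.00504), a 2.00-fold higher level, and 18.9% of all genes changed by more. Wdr24 kept this call in 25 of 25 alternative settings, with a highest adjusted p of 0.0456.

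Other transcripts moved with genotype at day 0 as well. Of 5 leukocyte markers none was called and Adgre1 was at 0. Their sum, 1769 to 1800 CPM in WT and 2898 to 2935 CPM in KO, was nearly all Lyz2, with means of 1781 and 2913 CPM, whereas Csf1r had means of 1.16 and 0.545 CPM. The 5 fibro-adipogenic markers, of which 2 were called lower and none higher, summed to 14505 to 14693 CPM in WT and 7967 to 8322 CPM in KO. That sum was nearly all Dcn and Col1a1, with WT means of 7379 and 7117 CPM, while Pdgfra had means of 19.7 CPM in WT and 30.7 CPM in KO. The 4 keratinocyte markers summed to 111 to 118 CPM in WT and 2.12 to 2.62 CPM in KO, where Krt5, Krt14 and Krt1 were at 0. The 4 red blood cell markers summed to 863 to 867 CPM in WT and 189 to 200 CPM in KO, and the 4 endothelial ones to 121 to 144 CPM and 202 to 210 CPM. The 4 muscle fibre markers summed to 50.8 to 58.7 CPM and 36.8 to 42.5 CPM, mostly Acta1 with means of 45.2 and 27.4 CPM, and 2 of the 4, Acta1 and Myh1, were called lower and none higher. Called lower in KO were also 6 of the 8 muscle stem cell markers, 4 of 4 red blood cell markers and the 3 keratinocyte markers tested, while 1 of 4 endothelial markers was called higher. The part of these differences in the level of Wdr24 was not tested. In bulk RNA, fewer cells of a type and less RNA per cell cannot be told apart.

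None of the other GATOR2 transcripts was called between genotypes at day 0. Sec13 was at 145 and 149 CPM in WT and 128 CPM in both KO libraries, which did not overlap, with a log2 fold change of -0.19 (SE 0.0766, edgeR adjusted p = 0.0871) that was not called. It was called in 4 alternatives, among them the DESeq2 Wald test with an adjusted p of 0.0266, and not in the other 21. Mios, another WD40 subunit of GATOR2, was at 22.6 and 26.0 CPM in WT and 26.4 and 28.2 CPM in KO, close but without overlap, with a log2 fold change of 0.17 (SE 0.155, edgeR adjusted p = 0.455). Wdr59, also a WD40 subunit, overlapped between genotypes, with a log2 fold change of -0.21 (SE 0.343) whose 95% confidence interval of -0.98 to 0.55 was wide. Seh1l overlapped as well, with 0.03 (SE 0.0972). Of the 3 GATOR1 transcripts, Nprl2 was at 16.0 and 16.9 CPM in WT and 14.8 and 13.7 CPM in KO, while Nprl3 was at 30.4 and 29.5 CPM in WT and 26.4 and 28.4 CPM in KO. Both were lower in KO without overlap in CPM but overlapped in TPM, and neither was called (log2 fold changes -0.21 and -0.13, edgeR adjusted p = 0.276 and 0.595). Depdc5 overlapped in CPM, at 11.2 and 9.50 in WT and 11.1 and 11.6 in KO. On the TPM scale Depdc5 did not overlap, at 3.60 and 3.45 in WT and 4.75 and 4.08 in KO. The ratio of counts to TPM, which reflects the length of the transcripts counted, varied between libraries for Depdc5 more than for most genes, with a larger span in 14.3% of them. The median log2 fold change was -0.05 over the 8 members and 0.00 over all genes tested.

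At day 7 the genotypes were closer. Wdr24 was at 21.7 and 16.9 CPM in WT and 17.0 and 15.2 CPM in KO, so that the genotypes overlapped, and its log2 fold change was -0.26 (95% confidence interval -0.69 to 0.17, edgeR adjusted p = 0.622). That interval excludes an increase of the size seen at day 0. The 8 log2 fold changes ran from -0.26 for Wdr24 to 0.12 for Nprl3. Seh1l had the smallest adjusted p of the 8 (0.382), at 117 and 107 CPM in WT and 90.8 and 104 CPM in KO.

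**Figure D3:**
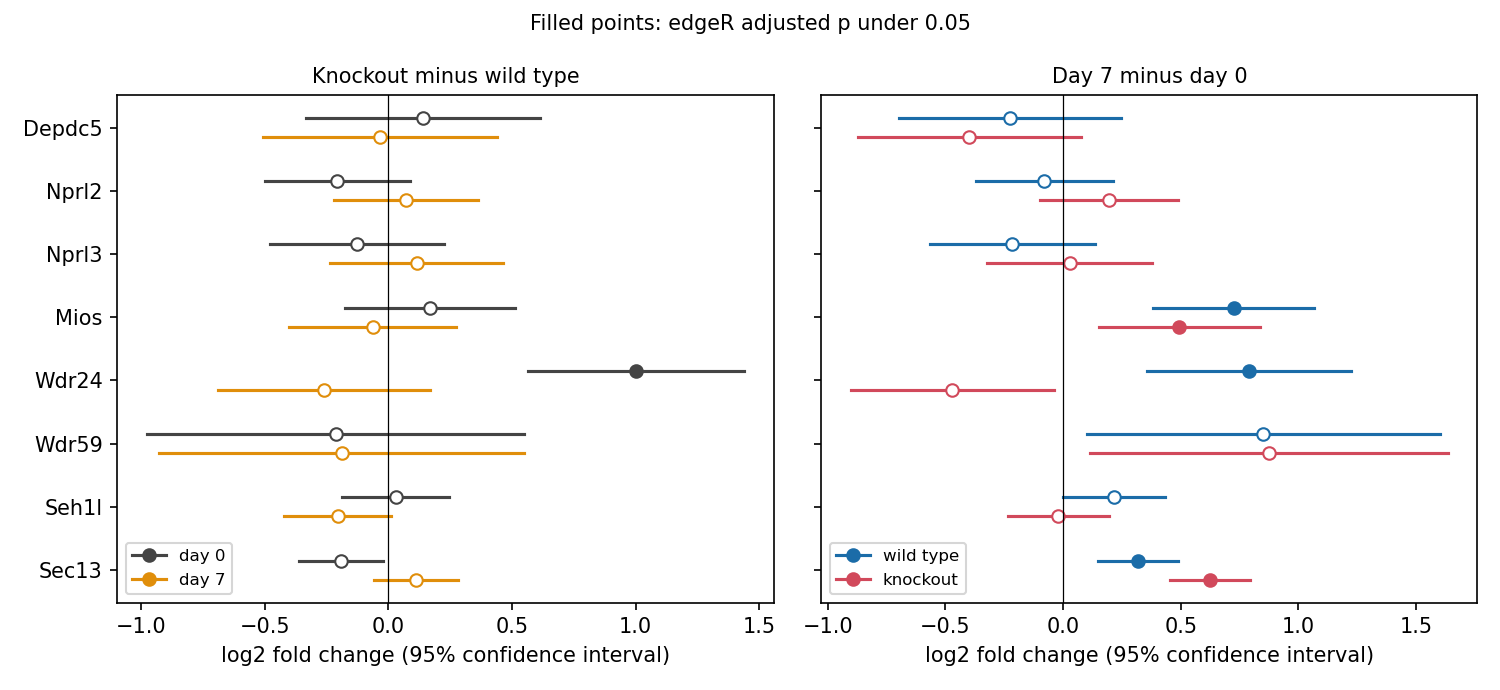
log2 fold changes of the 8 GATOR transcripts with 95% confidence intervals, knockout minus wild type at day 0 and day 7 (left) and day 7 minus day 0 in wild type and knockout (right), with points filled where the edgeR adjusted p is under 0.05. Wdr24 is the only filled point on the left, at 1.00, and its injury responses, 0.79 in wild type and -0.47 in knockout, lie on opposite sides of 0.

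From day 0 to day 7 Mios and Sec13 rose in both genotypes and Wdr24 rose in WT. These were 3 of the 5 GATOR2 transcripts called higher in WT and 2 of 5 in KO, where 25.8% and 24.7% of all genes were called higher. None of Depdc5, Nprl2 and Nprl3 was called in either genotype. Mios went from 22.6 and 26.0 CPM to 39.8 and 40.4 CPM in WT, and from 26.4 and 28.2 CPM to 39.6 and 37.1 CPM in KO. All 4 day 7 libraries lay above all 4 of day 0; of all genes, 79.6% did not overlap between these days in WT and 76.1% in KO. The log2 fold change of Mios was 0.72 in WT (SE 0.154, edgeR adjusted p = 0.00324) and 0.49 in KO (SE 0.154, edgeR adjusted p = 0.0230). The call in KO was lost when any 1 of the 4 KO libraries compared was left out (adjusted p 0.0509 to 0.122 without replicate 1 or 2 of KO day 0 or day 7), with log2 fold changes of 0.44 to 0.54.

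Sec13 went from 145 and 149 CPM to 190 and 176 CPM in WT, and from 128 CPM in both libraries to 199 and 197 CPM in KO. The day 7 libraries lay above those of day 0 without overlap in each genotype. The log2 fold change was 0.32 in WT (SE 0.0764, edgeR adjusted p = 0.00622) and 0.62 in KO (SE 0.0768, edgeR adjusted p = 9.36e-05). In WT the call was lost without replicate 1 of WT day 0 (adjusted p = 0.0722) or replicate 1 of WT day 7 (adjusted p = 0.0645). The difference between these changes, 0.30 (SE 0.108), was not called (edgeR adjusted p = 0.0910), although it was with DESeq2 (adjusted p = 0.0149). At day 7 the 4 muscle fibre markers summed to 1115 CPM or more in every library, against 58.7 CPM or less at day 0. Of the 5 leukocyte markers, 4 were called higher and 1, Lyz2, lower at day 7 in both genotypes, Csf1r going from a mean of 1.16 to 16.7 CPM in WT. Their sum, mostly Lyz2, was 403 CPM or less at day 7, against 1769 CPM or more. The fibro-adipogenic sum was 22470 to 23921 CPM in WT and 27582 to 28253 CPM in KO at day 7, with 2 of 5 markers called higher and 1 lower in each genotype. In WT 4 of 4 red blood cell markers were called lower, to a sum of 181 to 242 CPM, and in KO none. The muscle stem cell markers summed to 1430 to 1555 CPM in WT and 1398 to 1543 CPM in KO, with 3 of 8 called higher and 2 lower in WT, and 5 higher and 2 lower in KO. Of the 3 keratinocyte markers tested, 2 were called lower in WT and 1 higher in KO. Of the 4 endothelial markers, none was called in WT and 2 were called lower in KO. The part of these shifts in the day 7 levels of Mios, Sec13 and Wdr24 was not tested.

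The promoters of Sec13 and Mios, which rose together, and of Nprl2, which was not called in any comparison, are shown to set their sequences side by side, from 250 bases before to 50 bases after the start site. They come from RefSeq on GRCm38.p6, whose table gave 6 of the 8 members used here, with 300 bases each, 5′ to 3′ on the strand of the gene. Capitals mark matches on either strand to CCGGAAG (the ETS motif), CACGTG (the E-box), TGATGNAA (the ATF4 motif), GCATGCGC (the NRF1 motif), CCAAT (the CCAAT box) or GGGCGG (the GC box). The windows are chr6:113740632-113740931, minus strand, for Sec13, chr6:8208977-8209276, plus strand, for Mios, and chr9:107541959-107542258, plus strand, for Nprl2.
Sec13: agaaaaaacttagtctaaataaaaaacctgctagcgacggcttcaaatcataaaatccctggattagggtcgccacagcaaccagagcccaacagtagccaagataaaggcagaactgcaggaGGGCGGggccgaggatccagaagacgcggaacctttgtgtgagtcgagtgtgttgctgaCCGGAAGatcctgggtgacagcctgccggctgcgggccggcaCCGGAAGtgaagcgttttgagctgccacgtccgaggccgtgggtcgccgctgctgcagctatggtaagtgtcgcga
Mios: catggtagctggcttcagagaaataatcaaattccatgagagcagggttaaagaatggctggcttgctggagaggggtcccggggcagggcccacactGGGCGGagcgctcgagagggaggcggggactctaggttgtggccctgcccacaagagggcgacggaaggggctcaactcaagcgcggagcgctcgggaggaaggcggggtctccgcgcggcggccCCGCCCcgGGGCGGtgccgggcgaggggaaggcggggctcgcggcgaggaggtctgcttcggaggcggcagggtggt
Nprl2: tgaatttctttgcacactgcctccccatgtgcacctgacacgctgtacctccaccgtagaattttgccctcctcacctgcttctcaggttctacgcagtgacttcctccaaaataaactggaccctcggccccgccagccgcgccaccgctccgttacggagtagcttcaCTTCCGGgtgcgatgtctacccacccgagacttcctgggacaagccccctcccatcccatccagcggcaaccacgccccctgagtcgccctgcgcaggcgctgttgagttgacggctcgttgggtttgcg

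Sec13 held 2 matches to the ETS motif and 1 to the GC box, Mios held 3 to the GC box and none to the ETS motif, and Nprl2 held 1 to the ETS motif. Among 32817 promoters of the same length in the table, 8.86% held the ETS motif and 35.6% the GC box. The E-box, held by 7.15% of promoters, and the ATF4 motif, held by 3.97%, were in none of the 6 member promoters. The NRF1 motif, held by 2.71%, was in that of Nprl3, and the CCAAT box, held by 37.4%, was in that of Wdr59. No motif here was shared by Sec13 and Mios apart from the GC box. A match describes the letters of the window only.

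Wdr24 rose in WT and did not pass the test in KO, where its values were lower. Its level went from 10.6 and 11.7 CPM to 21.7 and 16.9 CPM in WT, and from 21.0 and 23.7 CPM to 17.0 and 15.2 CPM in KO. The groups did not overlap in either genotype, in opposite directions, beside the 79.6% and 76.1% of all genes without overlap. The log2 fold change was 0.79 in WT (SE 0.195, edgeR adjusted p = 0.00750) and -0.47 in KO (SE 0.194, edgeR adjusted p = 0.0695), the latter not called, though it was called in 8 of 25 alternatives. The call in WT was lost without replicate 1 of WT day 0 (adjusted p = 0.0584) or replicate 1 of WT day 7 (adjusted p = 0.0704).

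Tested directly, the change in KO minus that in WT was -1.26 for Wdr24 (SE 0.275, 95% confidence interval -1.87 to -0.65, edgeR adjusted p = 0.0181), the only called difference among the 8. It shares the day 0 libraries with the genotype difference at day 0 and is not independent of it. The sign held in 24 of 24 alternatives. The call was lost without any 1 of 5 libraries, replicate 2 of KO day 0, replicates 1 and 2 of WT day 0, replicate 2 of KO day 7 and replicate 1 of WT day 7 (adjusted p 0.0511 to 0.0699, log2 values -1.34 to -1.07). Among the markers the interaction was called above 0 for 3 of 8 muscle stem cell, 2 of 5 fibro-adipogenic, 2 of 4 muscle fibre and 1 of 3 keratinocyte genes tested, and below 0 for 1 of 4 endothelial genes. The part of these in the interaction of Wdr24 was not tested.

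Wdr59 and Seh1l moved less clearly by day 7. Wdr59, at 2.76 and 3.46 CPM in WT and 3.30 and 2.04 CPM in KO at day 0, was at 7.29 and 3.91 CPM and at 4.39 and 5.46 CPM at day 7. The day 7 libraries lay above those of day 0 in each genotype, but the spread was wide at 55.4 to 305 counts a library. Its log2 fold changes of 0.85 in WT (SE 0.337, edgeR adjusted p = 0.0605) and 0.88 in KO (SE 0.341, edgeR adjusted p = 0.0573) were not called. In KO 5 of 25 alternatives called Wdr59, with values from 0.50 to 1.28. In WT 1 of 25 did, that without replicate 2 of WT day 7 (1.24), with values from 0.33 to 1.24. Seh1l was at 98.8 and 94.5 CPM at day 0 and 117 and 107 CPM at day 7 in WT (log2 fold change 0.22, SE 0.0970, edgeR adjusted p = 0.0933), and overlapped between the days in KO. In WT 3 of 25 alternatives called Seh1l higher, among them limma on log2(TPM + 1) with 0.43 (adjusted p = 0.00563), and the values ran from 0.02 to 0.44.

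Among the GATOR1 transcripts, Nprl2 was the steadiest of the 8, with a highest level 1.31 times its lowest over the 12 libraries in CPM, and Nprl3 lay between 25.3 and 30.4 CPM in the 8 libraries of days 0 and 7. Depdc5 was at 10.1 and 7.56 CPM in WT and 8.10 and 9.18 CPM in KO at day 7. The KO libraries of day 7 lay below those of day 0, with a log2 fold change of -0.40 (SE 0.214, edgeR adjusted p = 0.153) that was not called. In WT the fold changes of the 3 were -0.23 for Depdc5, -0.08 for Nprl2 and -0.22 for Nprl3 on the log2 scale, with adjusted p-values from 0.290 upward in edgeR. Nprl3 was called lower in WT in 2 alternatives, and fitted on the libraries of the comparison alone its log2 fold change was -0.26 with an edgeR adjusted p of 0.0324.

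Sec13 and Mios were lower at day 21 than at day 7. Sec13 fell to 133 and 130 CPM in the libraries labelled WT and to 115 and 114 CPM in those labelled KO, below all 4 libraries of day 7. Its log2 fold change from day 7 was -0.64 (SE 0.0543, edgeR adjusted p = 5.83e-06), and all 25 alternatives called it. Mios stood at 26.5 CPM (replicate 1) and 36.3 CPM (replicate 2) under the WT label and at 28.2 CPM (replicate 1) and 32.8 CPM (replicate 2) under the KO label, also below every day 7 library, where 46.4% of all genes did not overlap. Its log2 fold change from day 7 was -0.34 (SE 0.108, edgeR adjusted p = 0.0203), which was lost without replicate 1 of KO day 7, replicate 2 of WT day 7, replicate 1 of KO day 21 or replicate 1 of WT day 21 (adjusted p 0.0536 to 0.0783). Without the last of these the log2 value was -0.22, under the main value by more than 1.5 times. The 4 muscle fibre markers summed to 164 to 426 CPM at day 21, below day 7 and above day 0, with 3 of 4 called lower than at day 7 and 4 of 4 higher than at day 0. Of the 5 leukocyte markers 4 were called lower than at day 7 and 1, Lyz2, higher, and all 8 muscle stem cell markers were called higher than at day 0. Called higher than at day 7 were also 4 of 4 red blood cell, 2 of 4 endothelial and 2 of 3 keratinocyte markers tested, and higher than at day 0 were all 3 of those keratinocyte markers and 3 of 5 fibro-adipogenic ones, with 1 of the 5 called lower. Against day 7, 4 of 8 muscle stem cell markers were called higher and 3 lower, and 2 of 5 fibro-adipogenic ones higher and 2 lower. Against day 0, 3 of 5 leukocyte markers were called higher and 1 lower, and 1 of 4 endothelial ones higher and none lower. The part of these shifts in the day 21 levels of the members was not tested.

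Wdr24 at day 21 stood at 11.7 CPM (replicate 1) and 15.7 CPM (replicate 2) under the WT label and at 12.4 CPM (replicate 1) and 15.8 CPM (replicate 2) under the KO label. In CPM replicate 2, which also had the higher Sesn2, was the higher one under both labels for Wdr24, Mios, Depdc5, Nprl3 and Wdr59. It was the lower one in CPM for Nprl2, Seh1l and Sec13. In TPM it was instead the higher one under both labels for Seh1l and Sec13. Nprl2 and Depdc5 went in opposite directions in TPM under the WT and KO labels. For Wdr24 the labels did not separate the 4 libraries. The genotype difference by label was 0.05 on the log2 scale (95% confidence interval -0.39 to 0.48, edgeR adjusted p = 0.950), and ran from -0.33 to 0.28 over 24 alternatives, none of which called it. Against day 7 the log2 fold change was -0.34 (SE 0.137, edgeR adjusted p = 0.0552), and the groups overlapped. It was called in 6 of 25 alternatives, with -0.53 (adjusted p = 0.00507) when an offset for GC content and length was used.

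Against day 0, the called members at day 21 were Wdr59 and Seh1l, which were higher, and Nprl3 and Sec13, which were lower. Mios was not called, at a log2 fold change of 0.27 (SE 0.109, edgeR adjusted p = 0.0694) with overlapping libraries. It was called higher in 4 of 25 alternatives, with values from 0.05 to 0.37. Wdr59 was at 5.41 and 6.14 CPM in the libraries labelled WT and at 4.38 and 5.03 CPM in those labelled KO, all above the 4 libraries of day 0, where 30.6% of all genes did not overlap. Its log2 fold change from day 0 was 0.85 (SE 0.241, edgeR adjusted p = 0.0150). It was lost without replicate 2 of KO day 0 (adjusted p = 0.0588) or replicate 1 of WT day 0 (adjusted p = 0.0569), and without both day 21 libraries that go against their labels (adjusted p = 0.0506). When GC content and length were offset, Wdr59 had 0.51 (adjusted p = 0.112). Seh1l was at 125 and 116 CPM in the libraries labelled WT and at 109 CPM in both labelled KO, again above all 4 of day 0. Seh1l was higher by a log2 fold change of 0.23 (SE 0.0687, edgeR adjusted p = 0.0187), a call lost without replicate 1 of KO day 0 (adjusted p = 0.0766), replicate 2 of WT day 0 (adjusted p = 0.0746) or the same 2 day 21 libraries (adjusted p = 0.0571). With an offset for GC content and length it turned to -0.04 (adjusted p = 0.606). The Seh1l transcripts, at 43.7% GC, lie below the 45.3% GC that bounds the lowest of 5 equal bins of genes.

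Nprl3 was lower at day 21 than on both earlier days. It stood at 14.5 CPM (replicate 1) and 21.3 CPM (replicate 2) under the WT label and at 22.5 CPM (replicate 1) and 23.0 CPM (replicate 2) under the KO label, below all 8 earlier libraries, with replicate 1 labelled WT the lowest of the 12. Of all genes, 30.6% did not overlap between day 21 and day 0, and 46.4% between day 21 and day 7. Nprl3 had a log2 fold change of -0.51 from day 0 (SE 0.112, edgeR adjusted p = 0.00431) and -0.41 from day 7 (SE 0.112, edgeR adjusted p = 0.00941). Every library could be left out in turn without losing either call, but with limma on log2(TPM + 1) the change from day 0 was -0.34 with an adjusted p of 0.0626. The exons of Nprl3 overlap by 1340 bases with those of Mpg on the opposite strand, a DNA repair glycosylase gene whose level was 13.1 to 15.1 CPM at day 21 and 18.7 to 21.5 CPM before. Mpg had a log2 fold change of -0.54 from day 0 (SE 0.0921, edgeR adjusted p = 0.000970). As the kit does not mark strand, reads from the shared exons cannot be told apart.

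Depdc5 and Sec13 showed small shifts at day 21. Depdc5 stood at 9.57 CPM (replicate 1) and 13.7 CPM (replicate 2) under the WT label and at 11.6 CPM (replicate 1) and 13.4 CPM (replicate 2) under the KO label, a log2 fold change of 0.46 from day 7 (SE 0.151, edgeR adjusted p = 0.0226) with an overlap of 1 library. The call was lost without replicate 1 of KO day 7, replicate 2 of WT day 7, replicate 2 of KO day 21 or replicate 2 of WT day 21 (adjusted p 0.0540 to 0.0885), and with limma on log2(TPM + 1) or log2(TPM + 0.1) (adjusted p = 0.0622 and 0.0658). Sec13 was lower than at day 0 by a log2 fold change of -0.16 (SE 0.0542, edgeR adjusted p = 0.0307), with overlapping libraries. This call was lost in 12 of 25 alternatives, among them leaving out any 1 of the 4 day 0 libraries or replicate 2 of KO day 21 (adjusted p 0.0636 to 0.118). With limma on log2(TPM + 1) the value was -0.018 (adjusted p = 0.819), and with log2(TPM + 0.1) it was -0.019 (adjusted p = 0.817).

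The genes around GATOR in the pathway were taken from lists of 45 genes in all. At day 0, Ragulator, the scaffold that holds the Rags on the lysosome, had 2 of 5 genes called lower in KO and none higher, and all 5 fold changes were below 0, where 12.6% of all genes were called lower. Lamtor4 changed most surely, from 23.9 and 21.9 CPM in WT to 13.3 and 10.9 CPM in KO (log2 fold change -0.92, SE 0.157, edgeR adjusted p = 0.00272). The other amino acid sensors had 3 of 5 called higher and none lower, where 14.8% of all genes were called higher. They were Castor2, a relative of the arginine sensor that binds GATOR2, Slc38a9, the lysosomal arginine sensor, and Lars, the leucyl-tRNA synthetase, with log2 fold changes of 0.98, 0.84 and 0.49. Among the 4 Rag GTPases only Rragd was called, at 24.2 and 22.2 CPM in WT and 41.5 and 40.3 CPM in KO (log2 fold change 0.82, SE 0.119, edgeR adjusted p = 0.00137). Fnip2, of the folliculin complex that acts on Rragd, was called higher among 3 (log2 fold change 1.03), and no gene of KICSTOR, which anchors GATOR1, or of the ubiquitin ligases listed was called.

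The change from day 0 to day 7 differed between genotypes for 1 of 5 sensors, 1 of 4 Rag GTPases, 1 of 5 Ragulator and 1 of 3 folliculin complex genes, and for none of the 4 KICSTOR genes or the 3 ubiquitin ligases, beside 13.5% of all genes. The interaction was -1.45 for Rragd (SE 0.167, edgeR adjusted p = 0.00162), -0.96 for Fnip2 (SE 0.254, edgeR adjusted p = 0.0342) and -0.92 for Castor2 (SE 0.219, edgeR adjusted p = 0.0246), all of the same sign as for Wdr24. These comparisons share the day 0 libraries. Lamtor4 had an interaction of the opposite sign, 1.13 (SE 0.220, edgeR adjusted p = 0.0121). At day 7 the only called genotype difference in these lists, Sesn1 apart, was that of Rragd, lower in KO by a log2 fold change of -0.63 (SE 0.118, edgeR adjusted p = 0.0293), at 36.3 and 31.0 CPM in WT and 22.9 and 20.6 CPM in KO.

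**Figure D4:**
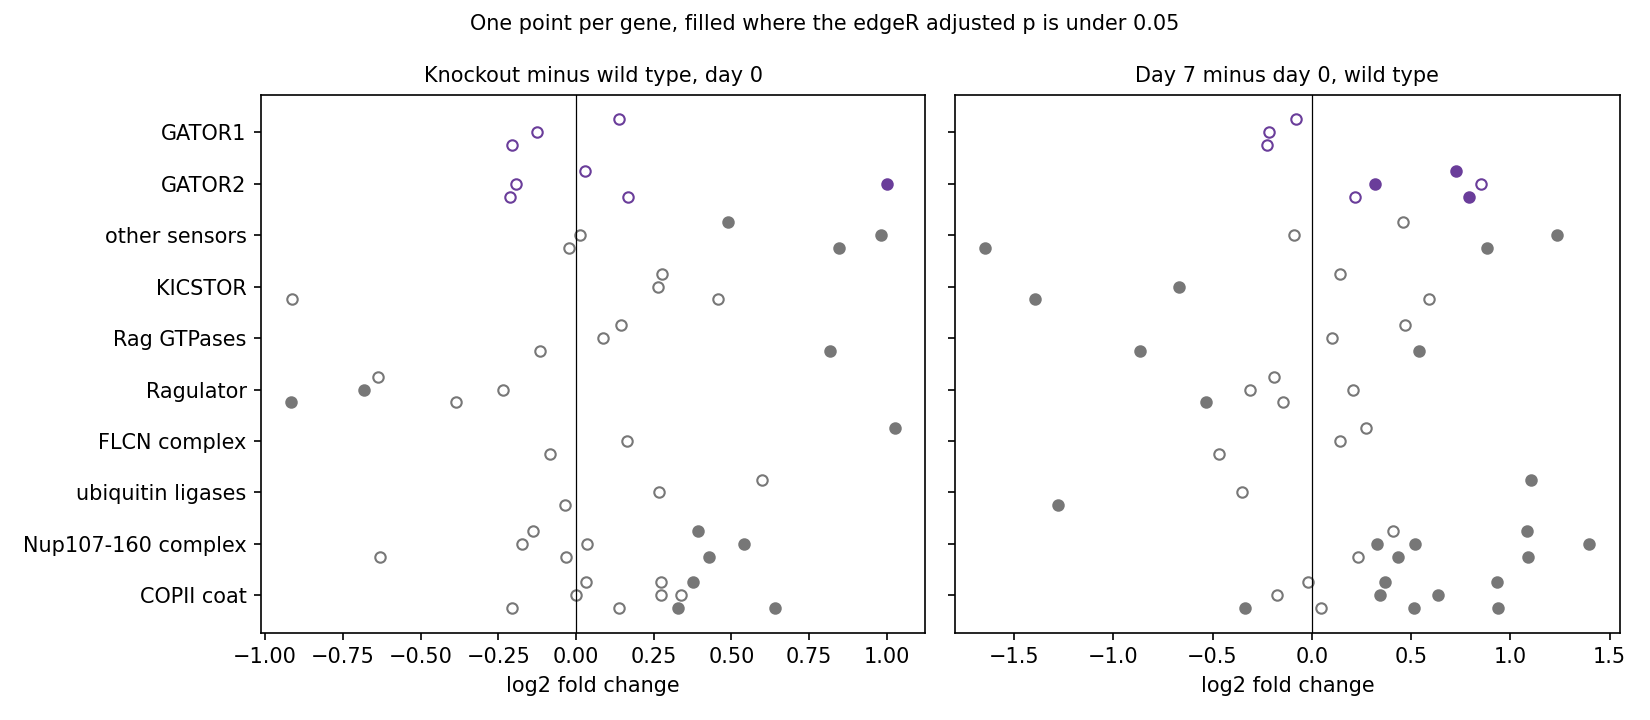
log2 fold changes of the genes of each complex, knockout minus wild type at day 0 (left) and day 7 minus day 0 in wild type (right), 1 point per gene, GATOR members in purple, filled where the edgeR adjusted p is under 0.05. Wdr24 is the filled GATOR2 point at 1.00 on the left, and 3 GATOR2 points but no GATOR1 point are filled on the right.

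Sec13 and Seh1l also serve in other complexes, whose genes were examined alongside. In WT at day 7, 6 of the 8 other nuclear pore genes of the outer ring were called higher and none lower, led by Nup107 (log2 fold change 1.40, SE 0.114, edgeR adjusted p = 8.43e-06), with a median of 0.48 over the 8 against 0.06 over all genes, 25.8% of which were called higher. Of the 10 other COPII genes 6 were called higher and 1 lower, with Sec23a at 0.93 (SE 0.0851, edgeR adjusted p = 1.68e-05). Sec13 rose in the same comparison by 0.32 and Seh1l, at 0.22, was not called. In KO at day 7, 4 of these 8 nuclear pore genes were called higher and 1 lower, and 4 of the 10 COPII genes higher and 2 lower, beside 24.7% of all genes called higher. Between genotypes at day 0, 3 of 10 COPII genes and 3 of the 8 nuclear pore genes were called higher in KO and none lower. Beside them 14.8% of all genes were called higher. The 3 COPII genes included Sec24c (log2 fold change 0.64, edgeR adjusted p = 0.00521). Of the ubiquitin ligases listed, in WT at day 7 Klhl22, an adaptor that marks Depdc5 for degradation, was called higher (log2 fold change 1.10) and Rnf167, which acts on Sestrin2, lower (log2 fold change -1.28). Kptn, of KICSTOR, was called lower (log2 fold change -0.67).

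The members did not vary as 1 group. Over the 12 libraries the Pearson correlation of log2 CPM between pairs of members ran from -0.80 for Nprl3 with Seh1l to 0.65 for Nprl2 with Sec13. Within GATOR1 it was -0.70 for Depdc5 with Nprl2, and within GATOR2 the highest was 0.61 for Mios with Sec13. These libraries share days and genotypes, so the values describe them only. Among the genes most like single members over the 12 libraries were Fbxo5 for Sec13 (r = 0.99), Myo19 for Mios (r = 0.97), Dnajc16 for Wdr24 (r = 0.94), Bloc1s5 for Nprl3 (r = 0.94), Golgb1 for Seh1l (r = 0.93), Tmem170b for Wdr59 (r = 0.90) and Reep5 for Nprl2 (r = 0.87).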

How the data were processed

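Per the submitters' processing notes, kallisto 0.46.1 and the builds mm10 and GRCm38.p6 were used. The authors deposited estimated counts per gene, which were rounded to whole numbers here, TPM of the same genes, and log2 values (regularised) that the authors corrected for a batch which neither labels nor headers name. The filter on low counts was filterByExpr, libraries were scaled by TMM, and CPM are relative to the scaled library sizes. edgeR 4.0.16 in R 4.3.3 fitted a mean per group to all 12 libraries, with quasi-likelihood F tests and Benjamini-Hochberg adjustment over the 15890 genes tested. Nothing says that the libraries of a group are separate animals, so p-values measure the spread between these libraries only. Log2 CPM for correlations adds a prior count of 2.

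The members, the lists and the tests were chosen with earlier results of these data known, and the motifs with the promoter sequences in view. All 8 members are named, Sesn1, Sesn2 and Sesn3 as needed, at most the 3 called genes with the smallest adjusted p per list and comparison, and the most correlated gene per member; some genes so chosen are not reported here. Alternatives were DESeq2 1.42.0, median-of-ratios size factors, other filters on low counts, an offset for gene length, a replicate block, fewer libraries in the fit, day 21 as 1 group, limma 3.58.1 on log2(TPM + 1), log2(TPM + 0.1) or the batch-corrected values, and leaving out each library. An offset for GC content and length, and leaving out the 2 day 21 libraries that go against their labels, were added after seeing the data. Gene positions and transcripts came from GENCODE on GRCm38, with matches sought by BLAST 2.17.0. The edgeR, DESeq2 and limma tests, and edgeR with the GC and length offset or the replicate block, were run on simulated counts. This was done for the genotype difference at day 0 only, and the other comparisons and settings were not checked in this way. Depth was 28396862 to 38950614 counts a library, and with 2 libraries a group the spread between them enters every SE.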

Additional observations from a re-analysis of the deposited data

Results flagged for a closer look

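The day 7 interaction of Wdr24 was -1.26 on the log2 scale, the change from day 0 to day 7 in KO minus that in WT, and the test of this difference between the genotypes passed the threshold (edgeR adjusted p = 0.0181). Both WT libraries of day 7 lay above those of day 0, and both KO libraries of day 7 lay below those of day 0. Over 24 alternatives the value ran from -1.44 to -0.99 and the adjusted p from 0.00111 to 0.0699.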

How the results depend on the processing

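Of 198 counts of members called under alternatives, 172 stayed within 1.5 times the main count. At day 0 the main count of 1 became 2 with DESeq2, with the libraries of the comparison alone, with the day 0 and day 7 libraries alone and with limma on the batch-corrected values, Sec13 being added. The interaction count of 1 became 2 with DESeq2, with the day 0 and day 7 libraries alone and with limma on the batch-corrected values, again by Sec13. For day 7 against day 0 in WT the count of 3 became 5 with the libraries of the comparison alone. For day 21 against day 0 the count of 4 became 2 with limma on log2(TPM + 1) or log2(TPM + 0.1), and 1 with the added GC and length offset, under which Seh1l turned to -0.041; the cause was not tested.

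Leaving out 1 library, which leaves a lone library assumed to vary like the other groups, the counts ran from 1 to 4 for day 7 against day 0 in WT, 1 to 3 in KO, 0 to 1 for the interaction, 2 to 5 for day 21 against day 0 and 2 to 4 for day 21 against day 7. They stayed at 1 for the genotypes at day 0 and at 0 for days 7 and 21. Same-numbered libraries did not deviate together (15 correlations of deviations, -0.14 to 0.07), so the numbers were not taken to pair the libraries; whether they mark the batch the authors corrected for was not tested. With the replicate number as a block the counts of members were 1, 0, 0, 3, 2, 1, 4 and 4 in the order of the comparisons, as in the main fit, and 1 gene in place of 2 was called at day 21 by label.

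Over all genes, calls at day 0 were 4356, against 7317 on the libraries of the comparison alone and 1667 to 5166 with 1 library left out. At day 7 there were 280, against 110 to 1169 in other settings and 15 to 619 with 1 left out. At day 21 by label there were 2, against 0 to 1200 (the highest without the 2 libraries that go against their labels) and 0 to 865, and the share of higher calls was 50% against 14.3% under the GC and length offset. For the interaction there were 2141, against 1334 with limma on log2(TPM + 0.1), 3887 on the day 0 and day 7 libraries, and 582 to 2852 with 1 left out. Low counts limit Wdr59 most, at 55.4 to 305 a library.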
